A study of Mus musculus with 4 samples.

Results

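The CC and CXC chemokines are small secreted proteins that direct the migration of cells. The genes described here are the 33, of 34816 genes and transcripts, whose name on a probe that is not a control is Ccl or Cxcl followed by a number and at most 1 letter. They were measured by 45 of the 55681 probes. The genes were taken by name and not by level, with earlier results of these data known, and comprised 20 CC and 13 CXC genes. Pf4 and Ppbp, CXC chemokines with other names, are given apart. In the RefSeq table of the mouse assembly GRCm38.p6, 12 of the 33 lie on chromosome 11 and 11 on chromosome 5. The study asked how the kinase AKT affects the reprogramming of mouse embryonic fibroblasts towards induced pluripotent stem cells. Its 4 arrays were 1 for each of 4 cultures, all sampled at 8 days postinfection (dpi).

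All cultures were started from fibroblasts of pooled male E13.5 embryos with an EGFP reporter gene driven by Oct4 regulatory sequence, and all received retroviruses for Oct4, Sox2 and Klf4 (OSK). The OSKA cultures also received a retrovirus for AKT-MER, in which AKT is joined to a modified estrogen receptor. Its ligand 4-hydroxytamoxifen (4OHT) activates AKT-MER. From 3 dpi, the OSK + 4OHT and OSKA + 4OHT cultures were given 4OHT, and the OSK − 4OHT and OSKA − 4OHT cultures the ethanol vehicle. AKT is therefore taken to be activated only in OSKA + 4OHT cells. Each culture was profiled in bulk, without sorting by the reporter as far as the labels say. The written description of the OSKA + 4OHT array is worded for nonactivated cells, against its title, and the title was followed here.

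Chemokines bind receptors of the G protein-coupled family and lead leukocytes along their gradient. They are grouped by the spacing of the first cysteines, which are adjacent in the CC and separated by 1 residue in the CXC family. Inflammatory chemokines are induced by cytokines and microbial products, largely through NF-kB, and fibroblasts and macrophages are both known sources of them. Cxcl9, Cxcl10, Cxcl11 and Ccl5 depend in addition on interferon, through transcription factors such as STAT2 and the IRF family. Homeostatic chemokines such as Cxcl12 are made without such a stimulus and hold or place cells in tissues.

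The promoters of Cxcl10 and Cxcl9 are shown because these genes are classical targets of both routes. They are the 250 bases before the RefSeq start in GRCm38.p6, both on the minus strand, at chr5:92348890-92349139 for Cxcl10 and chr5:92328080-92328329 for Cxcl9. Capitals mark words that fit the core of an interferon response element, GAAANNGAA, or of an NF-kB site, GGGANNTNC, on either strand.
Cxcl10: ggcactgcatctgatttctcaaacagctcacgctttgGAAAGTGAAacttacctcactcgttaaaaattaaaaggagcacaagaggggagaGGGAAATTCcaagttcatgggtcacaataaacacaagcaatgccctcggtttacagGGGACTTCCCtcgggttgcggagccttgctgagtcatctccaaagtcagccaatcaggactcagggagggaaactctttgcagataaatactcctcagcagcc
Cxcl9: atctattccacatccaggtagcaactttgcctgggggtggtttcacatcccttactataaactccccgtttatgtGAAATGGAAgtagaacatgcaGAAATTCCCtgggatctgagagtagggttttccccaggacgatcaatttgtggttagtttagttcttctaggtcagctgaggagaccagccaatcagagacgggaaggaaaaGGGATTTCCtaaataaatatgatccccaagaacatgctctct

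In Cxcl10 the interferon element word began 213 bases before the start, and in Cxcl9 it began 175 bases before it. The last capitals of Cxcl10 hold 2 overlapping NF-kB words, 1 on each strand. Promoters were given for 22 of the 33 genes. The interferon element core was found in 6 of the 22 (Ccl19, Cxcl9, Cxcl10, Ccl1, Ccl3 and Cxcl14) and in 7.13% of the 32851 promoters of all genes. The NF-kB core was found in 7 of the 22 (Cxcl1, Cxcl2, Cxcl3, Cxcl9, Cxcl10, Ccl1 and Ccl22) and in 12.5% of all promoters. Both words together occurred in 3 of the 22, Cxcl9, Cxcl10 and Ccl1, and in 0.755% of all promoters. These matches describe letters and are not shown to be bound in these cells.

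Levels are log2 intensities of a probe minus the 75th percentile of its array, and each gene is given by its brightest probe. A level describes its own probe across arrays and is not compared with that of another probe. The 75th percentile of intensity lay between 377 and 462, and between 52.4% and 55.4% of the spots were marked by the scanner software as well above background. With 1 array per group there was no replicate, so no test was made and no p-value is given. The error printed with a difference is the software's error model for the 2 arrays (median 0.20 on the log2 scale, or 1.15-fold), which covers the measurement and not the variation between cultures. All 10 fibroblast markers, among them Col1a2, Vim and Fn1, were well above background on every array, so the defining markers of the labelled cell type were present.

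Of the 33 chemokines, 23 were well above background on all 4 arrays, 14 of the 20 CC and 9 of the 13 CXC genes. The 9 include Cxcl11, whose signal was not shown to come from its own transcripts. Cxcl3 and Cxcl13 were so on the OSKA + 4OHT array alone. The other 8 were on none: Ccl1, Ccl17, Ccl20, Ccl22, Ccl26, Ccl28, Cxcl9 and Cxcl17. Each array thus detected 23 of the genes, except OSKA + 4OHT with 25.

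**Figure D1:**
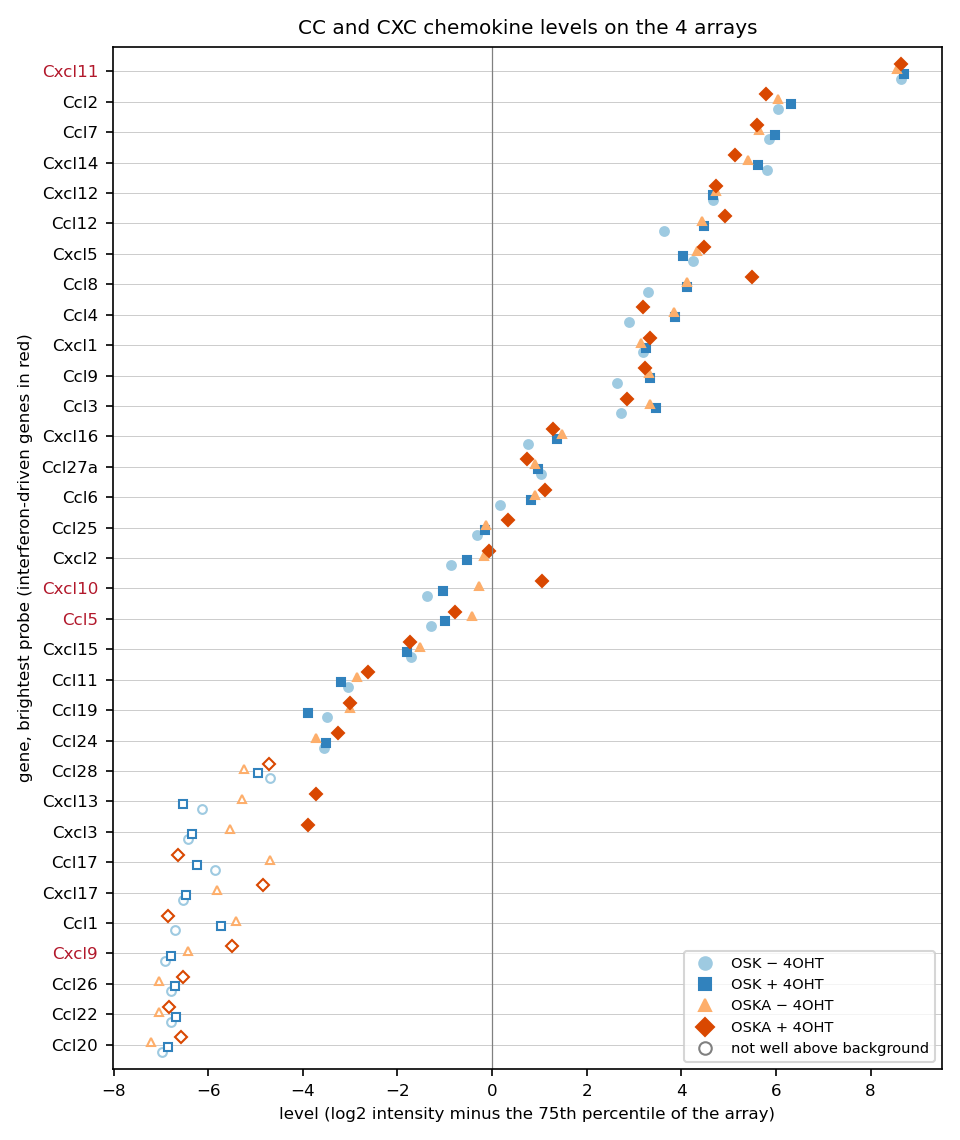
Level of each of the 33 chemokines on the 4 arrays (x axis, log2 intensity minus the 75th percentile of the array), 1 symbol per array, with hollow symbols where the probe was not well above background. The OSKA + 4OHT symbol of Cxcl10 and that of Ccl8 lie more than 1 log2 unit to the right of the other 3 symbols of the same gene, and the Cxcl11 symbols nearly coincide.

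Among the interferon-driven genes, Cxcl10 was highest in AKT-activated cells, whereas Ccl5 was highest in OSKA − 4OHT cells, Cxcl11 varied little and Cxcl9 was not detected. Cxcl10 attracts activated T cells and natural killer cells through the receptor CXCR3. Its level was −1.37 on the OSK − 4OHT array, −1.05 on OSK + 4OHT, −0.28 on OSKA − 4OHT and 1.06 on OSKA + 4OHT. Both OSKA arrays were above both OSK arrays, and the array with activated AKT stood highest.

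With 4OHT, Cxcl10 was 1.34 ± 0.20 (log2, software error) higher in OSKA cells, or 2.53-fold. In OSK cells the same addition gave 0.33 ± 0.21, or 1.26-fold. Both differences were past their software error, but that in OSK cells was 0.0079 under scaling on spike-in probes. Between OSKA and OSK cells, Cxcl10 differed by 1.09 ± 0.21 without 4OHT and by 2.11 ± 0.21 with it, or 4.30-fold. Of the 19846 genes measured on both arrays with 4OHT, 0.156% had a difference as high or higher. A second Cxcl10 probe, designed on another transcript, was dim on every array.

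Ccl5, known as RANTES, draws T cells, monocytes and eosinophils. It lay at −1.30, −1.0, −0.42 and −0.79 in the order OSK − 4OHT, OSK + 4OHT, OSKA − 4OHT and OSKA + 4OHT, which is the order used for all sets of 4 levels from here. It was thus highest in OSKA cells without 4OHT. The difference with 4OHT was 0.29 ± 0.21 in OSK cells and −0.36 ± 0.21 in OSKA cells. Between OSKA and OSK cells it was 0.87 ± 0.21 without 4OHT and 0.22 ± 0.21 with 4OHT. Ccl5 and Cxcl10 therefore stood in different orders across the arrays.

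Cxcl11, another ligand of CXCR3, is annotated as a transcribed pseudogene in the RefSeq table of this assembly, which is of the strain C57BL/6J. The brighter of its 2 probes gave 8.65, 8.71, 8.55 and 8.63, and its 4 differences lay between −0.10 and 0.08, all within the software error. The other probe gave 2.21, 2.15, 2.23 and 1.99, with differences between −0.24 and 0.02. Neither probe varied as Cxcl10 did.

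A stretch of 30 bases of the bright Cxcl11 probe (bases 15 to 44 of 60) is shown because it bears on what that probe measured.
Cxcl11 probe: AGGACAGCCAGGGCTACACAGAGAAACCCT
This word is familiar from the mouse B1 repeat, a short interspersed element present in many transcripts. The probe shared a word of 20 bases with 22 of the 32851 RefSeq promoters, among them promoters of 21 other genes. It also shared such a word with probes of 7 other genes or transcripts (Elk1, Med16, Timmdc1, Ndor1, Glrx2, Gm10856 and AK140579). Of the 43 member probes for other genes, 3 shared such a word with the promoter of another gene, and no more than 1 each. The dimmer Cxcl11 probe shared none of 20 bases, but words of 15 bases with 18 promoters of other genes, against 65 for the bright probe and 0 to 6 for the other 43. Whether either signal came from Cxcl11 transcripts was not tested.

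Cxcl9, the remaining ligand of CXCR3, was not well above background with either of its 2 probes on any array. Its receptor Cxcr3, named here for its ligands, was measured at −2.50, −1.62, −1.84 and −1.88, lowest on the OSK − 4OHT array. The median difference of the 3 measured interferon-driven genes was 0.29, 0.08, 0.87 and 0.22 in the order 4OHT in OSK cells, 4OHT in OSKA cells, OSKA against OSK without 4OHT, and OSKA against OSK with 4OHT. Without Cxcl11, left out after the data were seen, it was 0.31, 0.49, 0.98 and 1.16, from Cxcl10 and Ccl5 alone. The median of the other 20 measured chemokines was 0.14, −0.00, 0.19 and 0.08, and that of all genes −0.00, −0.03, −0.02 and −0.05. Scaling the arrays on spike-in probes turned the median of the 3 interferon-driven genes with 4OHT in OSK cells to −0.029, and gave −0.18 and −0.29 for the other chemokines in the comparison of 4OHT in OSK cells and that of OSKA against OSK without 4OHT. Each array enters 2 of the 4 comparisons, so they are not independent of each other.

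**Figure D2:**
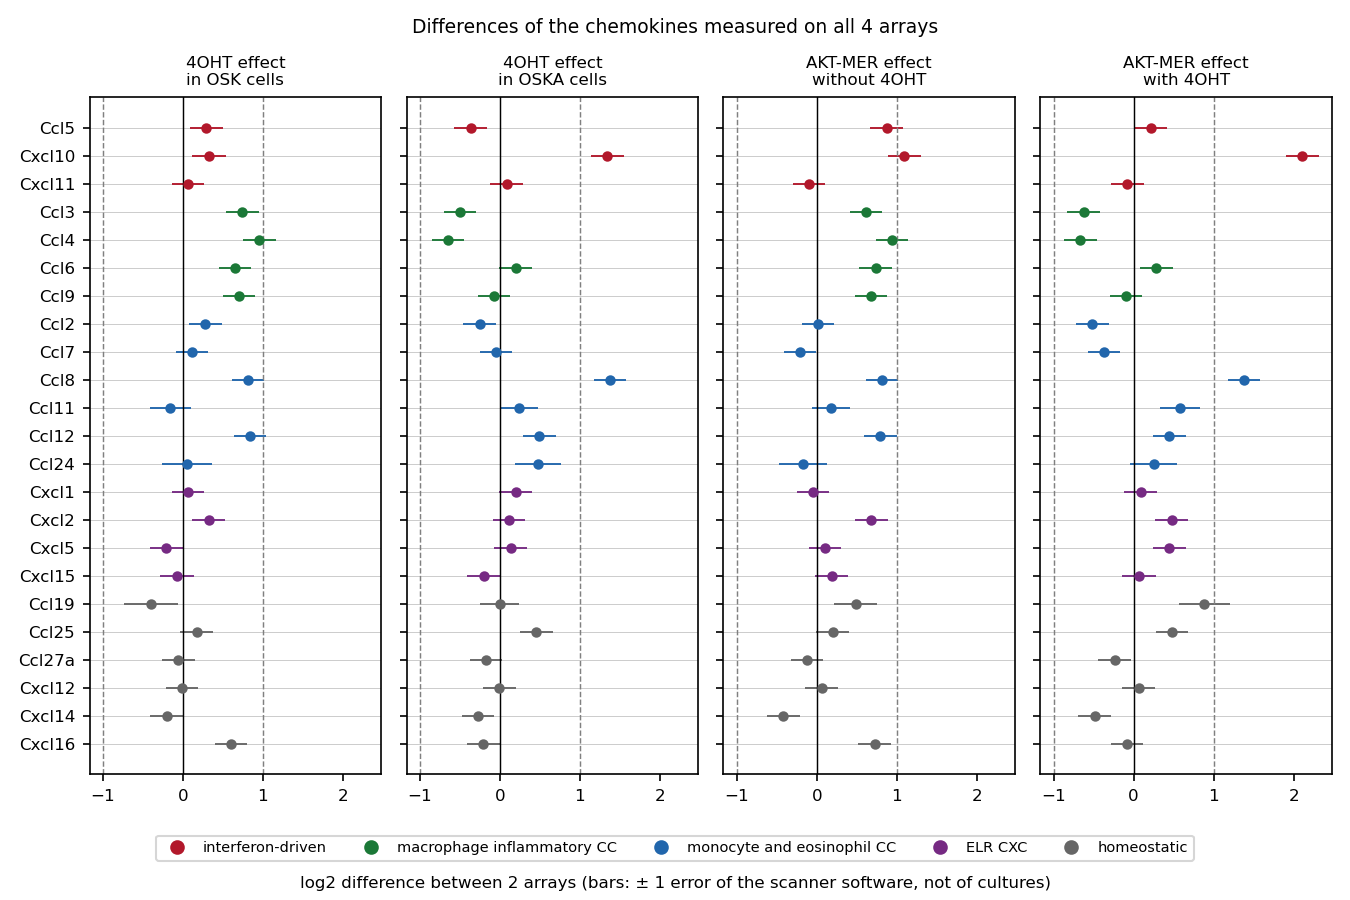
Log2 differences of the 23 chemokines measured on all 4 arrays, 1 panel per comparison, coloured by role, with bars of 1 software error and dashed lines at 2-fold. The 4OHT effect is + 4OHT minus − 4OHT, and the AKT-MER effect is OSKA minus OSK. Cxcl10 and Ccl8 are the only points beyond a dashed line, both with 4OHT in OSKA cells and between OSKA and OSK cells with 4OHT, and Cxcl10 alone between OSKA and OSK cells without 4OHT.

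At a difference of at least 2-fold, no chemokine of the 23 was higher or lower with 4OHT in OSK cells, where 0.609% of all 19861 genes were higher and 0.277% lower. With 4OHT in OSKA cells, Cxcl10 and Ccl8 were higher and none was lower, beside 2.01% and 0.901% of 20300 genes. Between OSKA and OSK cells without 4OHT, Cxcl10 was higher and none lower, beside 1.09% and 0.931% of 20183 genes. This call was lost under scaling on spike-in probes, where Cxcl10 gave 0.61, and under normexp background correction, where it gave 0.81. With 4OHT, Cxcl10 and Ccl8 were again higher and none lower, beside 1.92% and 1.12% of 19846 genes. With 1 array per group, these counts of 0 to 2 among 23 genes were not tested against the shares of all genes. The SD of the difference over all genes was 0.30, 0.39, 0.36 and 0.41 in the same order.

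A lower threshold of 1.5-fold brought in more chemokines, chiefly in the comparisons that use the OSK − 4OHT array. With 4OHT in OSK cells, 7 were higher (Ccl3, Ccl4, Ccl6, Ccl8, Ccl9, Ccl12 and Cxcl16) and none was lower, beside 4.33% of all genes higher and 1.63% lower. Between OSKA and OSK cells without 4OHT, the same 7 with Ccl5, Cxcl2 and Cxcl10 made 10 higher and none lower, beside 5.66% and 3.99% of all genes. With scaling on spike-in probes, which lowered the median of all genes in both comparisons, 1 of the 7 (Ccl4) and 1 of the 10 (Cxcl10) stayed past 1.5-fold higher, beside 0.866% and 0.798% of all genes, and 1 and 4 were lower, beside 12.3% and 35.5%. These comparisons share the OSK − 4OHT array, so a low level on it enters both. With 4OHT in OSKA cells, Cxcl10 and Ccl8 were higher and Ccl4 lower, beside 5.06% and 4.63%. Between OSKA and OSK cells with 4OHT, Cxcl10, Ccl8 and Ccl19 were higher and Ccl3 and Ccl4 lower, beside 5.46% and 5.10%. Under normexp background correction Ccl4 gave −0.57 and −0.58 in these comparisons, short of 1.5-fold.

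**Figure D3:**
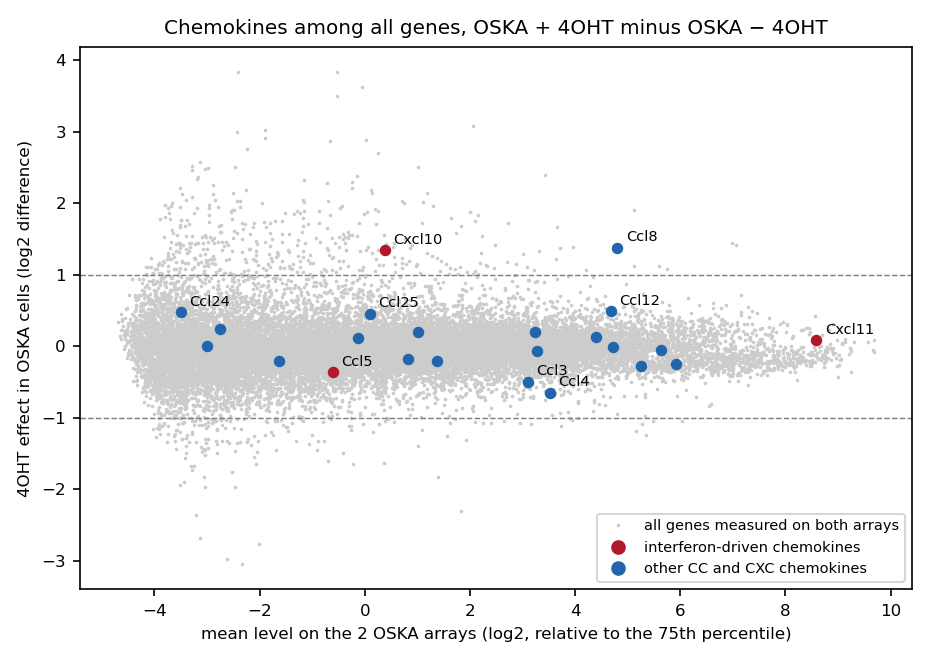
Difference between OSKA + 4OHT and OSKA − 4OHT (y axis, log2) against the mean level of the 2 arrays (x axis, log2) for all genes measured on both, with the chemokines as large points and dashed lines at 2-fold. Cxcl10 at 1.34 and Ccl8 at 1.38 lie above the upper line, and the other chemokines lie between the lines.

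The chemokines of monocytes and eosinophils fell into genes that were highest in AKT-activated cells and genes that were lowest there. Ccl8, or MCP-2, which recruits monocytes and eosinophils, gave 3.30, 4.12, 4.12 and 5.50. The OSK − 4OHT array was lowest, the next 2 were equal within their error, and OSKA + 4OHT was highest. With 4OHT, Ccl8 differed by 1.38 ± 0.20 in OSKA cells, or 2.60-fold, and by 0.82 ± 0.20 in OSK cells, or 1.76-fold. Between OSKA and OSK cells it differed by 0.81 ± 0.20 without 4OHT and by 1.38 ± 0.20 with 4OHT. Of all genes measured, 0.985% were as high or higher with 4OHT in OSKA cells.

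Ccl12, or MCP-5, a mouse ligand of CCR2, gave 3.63, 4.47, 4.43 and 4.92. Its difference with 4OHT was 0.49 ± 0.20 in OSKA cells and 0.84 ± 0.20 in OSK cells. It was thus lowest on the OSK − 4OHT array and highest on the OSKA + 4OHT array, as Ccl8 was, with a smaller range.

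Ccl2, or MCP-1, the main attractant of CCR2-bearing monocytes, gave 6.03, 6.32, 6.05 and 5.80. It is the 1 chemokine whose probe was spotted 10 times on each array, and the SD among its spots was 0.050, 0.047, 0.068 and 0.044. The spots of OSKA + 4OHT, between 5.74 and 5.86, lay below those of every other array, of which the lowest was 5.96. This spread is that of spots on 1 array and says nothing about other cultures. Its difference with 4OHT was 0.28 ± 0.20 in OSK cells and −0.25 ± 0.20 in OSKA cells, and OSKA minus OSK cells with 4OHT gave −0.52 ± 0.20. Ccl7, or MCP-3, also gave its lowest level on OSKA + 4OHT, with 5.86, 5.97, 5.65 and 5.60.

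The eotaxins bind CCR3 and attract eosinophils. Ccl11 lay at −3.04, −3.20, −2.86 and −2.62 and Ccl24 at −3.55, −3.51, −3.73 and −3.25. Both were faint, with software errors of 0.23 to 0.31, and for both the OSKA + 4OHT array was highest. The other eotaxin, Ccl26, was not detected. Over the 6 measured genes of monocytes and eosinophils, the median difference was 0.20, 0.36, 0.10 and 0.35 in the 4 comparisons.

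The macrophage inflammatory CC chemokines were lowest on the OSK − 4OHT array. These chemokines, among them ligands of CCR1, are made mainly by macrophages and other leukocytes. Ccl3 (MIP-1 alpha) gave 2.73, 3.47, 3.34 and 2.85. Ccl4 (MIP-1 beta) gave 2.90, 3.86, 3.84 and 3.19. For both, OSK + 4OHT and OSKA − 4OHT were nearly equal and the 2 remaining arrays were lower.

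Ccl6, a related mouse chemokine, gave 0.18, 0.83, 0.91 and 1.11. Ccl9 (MIP-1 gamma) gave 2.63, 3.33, 3.31 and 3.24. For these genes the OSKA + 4OHT array was close to, or above, the middle arrays. In OSK cells with 4OHT the differences of Ccl3, Ccl4, Ccl6 and Ccl9 were 0.74, 0.96, 0.65 and 0.70, each ± 0.20. In OSKA cells with 4OHT they were −0.50, −0.65, 0.20 and −0.07, each ± 0.20. The median of the 4 was 0.72 in OSK cells and −0.28 in OSKA cells with 4OHT, and 0.71 and −0.36 between OSKA and OSK cells without and with 4OHT. Ccl20, the fifth gene of the list, was not detected.

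Cxcl16, a membrane-bound chemokine that is also a scavenger receptor of macrophages, had a like order, with 0.76, 1.36, 1.49 and 1.28. Its difference with 4OHT was 0.60 ± 0.20 in OSK cells and −0.21 ± 0.20 in OSKA cells. With scaling on spike-in probes, the 4 macrophage chemokines and Cxcl16 stayed above 0 in OSK cells with 4OHT, between 0.28 and 0.63, and between OSKA and OSK cells without 4OHT, between 0.13 and 0.45.

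Markers of leukocytes moved with these chemokines. Of 14 leukocyte markers, 12 were well above background on all arrays. The other 2, among them Ncr1 of natural killer cells, were on none. The summed level of the leukocyte markers on the linear scale, in units of the 75th percentile, was 265 on OSK − 4OHT, 386 on OSK + 4OHT, 374 on OSKA − 4OHT and 335 on OSKA + 4OHT. The median difference of the 12 was 0.62 and −0.17 with 4OHT in OSK and OSKA cells, and 0.57 and −0.19 between OSKA and OSK cells without and with 4OHT. Their counts above 0 were 11, 3, 11 and 2 of 12, beside 9810 of 19861, 9174 of 20300, 9483 of 20183 and 8515 of 19846 genes. With scaling on spike-in probes the medians were 0.30, −0.13, 0.086 and −0.32, and 10, 3, 7 and 1 of 12 were above 0, beside 2467, 10298, 1651 and 5364 of the same numbers of genes.

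By their 3 brightest probes, Csf1r, the receptor of macrophage colony-stimulating factor, gave 5.91, 6.51, 6.50 and 6.33. The signalling adaptors Fcer1g, with 5.62, 6.32, 6.21 and 6.04, and Tyrobp, with 5.13, 5.82, 5.69 and 5.48, had the same order. The OSK − 4OHT array was lowest for each of them, as for Ccl3, Ccl4, Ccl6 and Ccl9. In these bulk samples, fewer cells of a type and less RNA per cell cannot be told apart, and the part of leukocytes in the chemokine values was not tested. The 3 detected of 5 endothelial markers summed to 8.00, 11.9, 8.91 and 10.1, with Cdh5 and Tie1 not detected. Kdr carried that sum, at 2.71, 3.44, 3.01 and 3.24, while Tek gave 0.41, −0.15, −0.42 and −0.86 and Pecam1 −2.77, −2.78, −3.13 and −3.13. The 4 epithelial markers summed to 3.59, 2.84, 2.03 and 2.89, and the 10 fibroblast markers to 1570, 1639, 1798 and 1885. With 4OHT in OSKA cells, where Cxcl10 and Ccl8 were higher, 3 of the 12 leukocyte markers were above 0, between 0.08 and 0.42, the highest being Aif1.

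**Figure D4:**
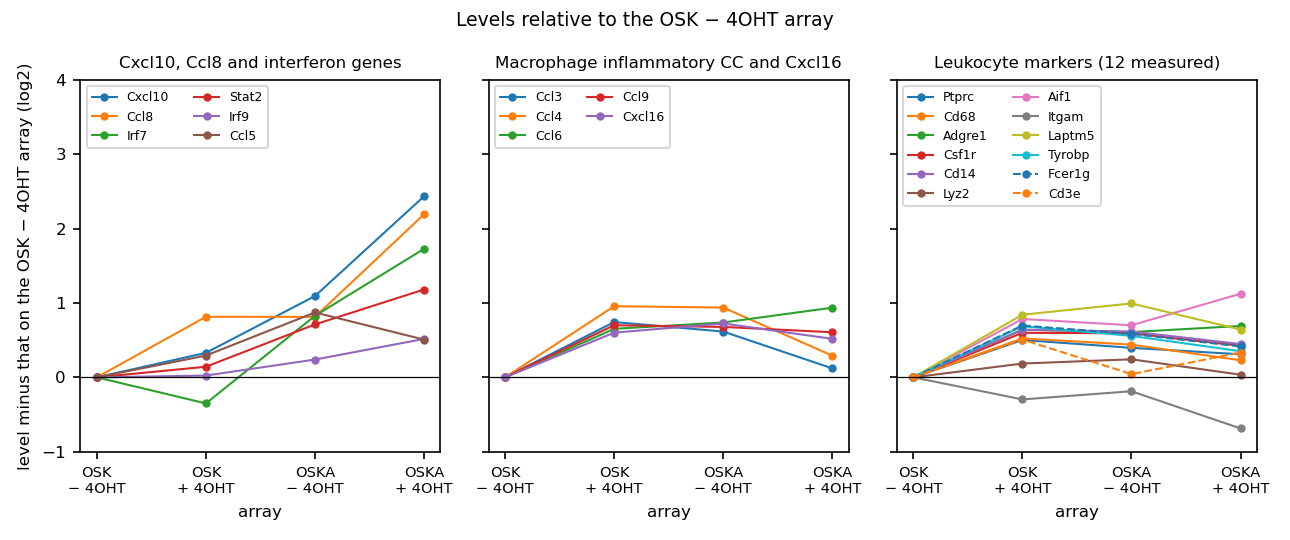
Level on each array minus that on the OSK − 4OHT array (y axis, log2). The left panel holds Cxcl10, Ccl8, Ccl5 and, of the 14 measured genes of interferon signalling, Irf7, Stat2 and Irf9 alone. Over the 14, 7 were above 0 and 7 below in OSKA minus OSK cells with 4OHT. The middle panel holds the macrophage inflammatory CC chemokines with Cxcl16, and the right panel the 12 measured leukocyte markers. Lines join the values of 1 gene and carry no order in time. Cxcl10, Ccl8 and Irf7 stand apart on OSKA + 4OHT, whereas all of the macrophage chemokines and 11 of the 12 leukocyte markers lie above 0 on both middle arrays.

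Chemokines with the ELR motif attract neutrophils through CXCR2. They differed in how far they varied. Cxcl1 (KC) was nearly level at 3.19, 3.25, 3.14 and 3.34. Cxcl5 (LIX) gave 4.24, 4.03, 4.34 and 4.47, and OSKA minus OSK cells with 4OHT was 0.45 ± 0.20. Cxcl2 (MIP-2) gave −0.86, −0.54, −0.18 and −0.06, so that both OSKA arrays were above both OSK arrays, by 0.68 ± 0.21 without and 0.47 ± 0.21 with 4OHT.

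Cxcl15, which is best known from the lung, lay at −1.71, −1.79, −1.52 and −1.73. Cxcl3 was well above background on OSKA + 4OHT alone, at −3.88, which was at least 2.03-fold higher than OSKA − 4OHT and at least 1.58-fold higher than OSK + 4OHT. These bounds set its level against the higher of its own dim signal and the lowest signal well above background on the dim array. Over the 4 measured ELR genes the median difference was −0.01, 0.12, 0.14 and 0.27, beside −0.00, −0.03, −0.02 and −0.05 for all genes. In the same order, 2, 3, 3 and 4 of the 4 were above the median of all genes.

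Of the 12 homeostatic chemokines, 5 (Ccl1, Ccl17, Ccl22, Ccl28 and Cxcl17) were not detected. Of the 6 measured on all arrays, Cxcl12 and Ccl27a had the smallest ranges of level, 0.07 and 0.29, and Ccl25, Cxcl14, Cxcl16 and Ccl19 had ranges of 0.66, 0.69, 0.72 and 0.88. Ccl1, Ccl17 and Ccl22 draw T-cell subsets and are listed here although they can also be induced. Cxcl12, or SDF-1, the ligand of CXCR4 that retains blood stem cells in bone marrow and is made by stromal fibroblasts, gave 4.67, 4.66, 4.73 and 4.73. Its range of 0.07 was under its software error. A second Cxcl12 probe, on another transcript, gave 3.90, 3.75, 3.89 and 3.73.

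Cxcl14, a chemokine of skin and connective tissue, gave 5.81, 5.61, 5.40 and 5.13. OSKA + 4OHT was lowest, with a difference of −0.27 ± 0.20 from OSKA − 4OHT and of −0.49 ± 0.20 from OSK + 4OHT. Cxcl13, which attracts B cells to lymphoid follicles, was well above background on OSKA + 4OHT alone, at −3.72, at least 2.27-fold higher than OSKA − 4OHT and at least 1.77-fold higher than OSK + 4OHT. As with Cxcl3, 1 spot carried this value.

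Ccl19, the ligand of CCR7 in lymph nodes, lay at −3.49, −3.89, −3.00 and −3.01 on its brightest probe. A second probe gave −0.34, −0.07, 0.12 and 0.39 as its 4 differences, against −0.40, −0.00, 0.49 and 0.88 for the first, and the other one was not detected. Ccl27a, a skin chemokine, gave 1.04, 0.98, 0.91 and 0.74. Ccl19 and Ccl27a have near-identical copies on chromosome 4, and a probe cannot be assigned to 1 copy with certainty.

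Ccl25, which leads T cells to the thymus and gut, gave −0.33, −0.15, −0.13 and 0.33 on its brightest probe. Its probes disagreed. Another gave differences of 0.47, 0.00, 0.06 and −0.41 where the brightest gave 0.18, 0.46, 0.20 and 0.48, one was well above background on OSK − 4OHT alone and one on no array.

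Other chemokines were on the array under names that the rule does not take. Cx3cl1, the membrane-bound fractalkine, gave 1.70, 1.64, 1.72 and 1.16, lowest on OSKA + 4OHT. Pf4, a CXC chemokine of platelets also made by macrophages, gave 3.40, 4.24, 3.92 and 4.32. Ppbp, a CXC chemokine of platelets with the ELR motif, gave −3.22, −3.30, −2.50 and −1.95, and was higher by 1.35 in OSKA than in OSK cells with 4OHT. It was the only one of these genes past 2-fold in any comparison, and Xcl1 was not detected.

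Of 24 chemokine receptors, 11 were well above background on all arrays and 10 on none. Among them, 0 of 11, 1 of 12, 0 of 11 and 0 of 12 measured were at least 2-fold higher in the 4 comparisons, beside 0.609%, 2.01%, 1.09% and 1.92% of all genes, and none was lower. That 1 was Ccr10, the receptor of Ccl27a and Ccl28, which was measured on the OSKA arrays alone at −4.61 and −2.40. Its difference with 4OHT was 2.21 ± 0.35. The −4.61 lay near −4.90, the lowest level well above background on the OSKA − 4OHT array. Against OSK + 4OHT, the OSKA + 4OHT level of Ccr10 was at least 4.41-fold higher. Bright receptor probes were those of Ackr3, a decoy receptor of Cxcl12, at 3.57, 3.11, 2.81 and 3.31, and of Cx3cr1, a macrophage receptor of Cx3cl1, at 2.69, 3.42, 3.49 and 3.20. Cx3cr1 was lowest on OSK − 4OHT, as Ccl3, Ccl4, Ccl6 and Ccl9 were.

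Among 16 genes of interferon signalling, 14 were measured on all arrays. None was 2-fold higher or lower in the first 3 comparisons, and 3 of the 14 were higher between OSKA and OSK cells with 4OHT, beside 1.92% of all genes. Irf7, the regulator that amplifies type I interferon responses, gave −2.03, −2.39, −1.21 and −0.31, and OSKA minus OSK cells with 4OHT was 2.08. Stat2, a transcription factor of the type I response, gave 1.08, 1.22, 1.79 and 2.26, and OSKA minus OSK cells with 4OHT was 1.04. With 4OHT against vehicle, Irf7 gave 0.90 in OSKA and −0.35 in OSK cells, and Stat2 gave 0.47 and 0.14. Irf7 and Stat2 were both highest on OSKA + 4OHT, as Cxcl10 was.

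The probes of Irf3 (4.43, 4.41, 4.29 and 4.16), Jak1 (4.06, 4.21, 4.22 and 4.05) and Irf1 (3.33, 3.40, 3.38 and 3.33) were the brightest of the list. All were lowest on OSKA + 4OHT, but Jak1 and Irf1 were only slightly below their OSK − 4OHT level. Ifng, the type II interferon, was not detected. Ifnb1, a type I interferon, was well above background on OSKA − 4OHT alone, at −3.52. It was at least 2.38-fold lower on OSKA + 4OHT and at least 2.22-fold lower on OSK − 4OHT. Its dim levels were −6.57 on OSK − 4OHT, −6.48 on OSK + 4OHT and −6.62 on OSKA + 4OHT. The faint signal of 1 array carried these bounds. The median difference of the 14 was 0.03, −0.00, 0.11 and −0.03.

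Of 18 genes of NF-kB and inflammation, 14 were measured and none was 2-fold higher or lower in any comparison. With 4OHT in OSKA cells, 12 of the 14 were below 0, with a median of −0.21, beside 11126 of 20300 genes and a median of −0.03 over all genes. In OSK cells 8 of the 14 were above 0, with a median of 0.08, beside 9810 of 19861 genes and a median of −0.00. The brightest probes were those of Rela, a subunit of NF-kB, at 5.41, 5.38, 5.29 and 5.11, of its inhibitor Nfkbia at 4.95, 4.80, 4.69 and 4.43, and of the adhesion molecule Vcam1 at 3.73, 3.59, 3.50 and 3.43. Each was lowest on OSKA + 4OHT. A second Vcam1 probe gave −0.16, 0.01, 0.05 and −0.14, lowest on OSK − 4OHT. Genes past 2-fold in the cell marker lists were Lum, higher by 1.13 with 4OHT in OSKA cells and by 1.65 in OSKA than in OSK cells with 4OHT, Krt18, higher by 1.06 in the latter comparison, and Krt8 and Cdh1, at −1.23 and −1.05 between OSKA and OSK cells without 4OHT.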

How the data were processed

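RNA was hybridised to 4 single-channel (Cy3) Agilent arrays, 1 per group. The deposited scanner files give, per spot, a linear intensity, background-corrected by the scanner software (Feature Extraction 10.7.3.1), with surrogates for signals not above it, and marks (a score of 0 or 1) for spots well above background. The authors' matrix repeats this intensity, at a ratio of 0.995 to 1.00. Groups came from the titles.

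From each log2 intensity the array's 75th percentile was subtracted, without control spots and the 104 to 155 marked spots per array. Spots of a probe were averaged, and a difference was taken only where both arrays were well above background. No spot was saturated. The 4 comparisons were 4OHT against vehicle in OSK and in OSKA cells, and OSKA against OSK without and with 4OHT. Of the probes, 27509 (49.4%) were named through a RefSeq accession in the GRCm38.p6 table, and for the rest the array's own name was used. Promoters are RefSeq's, searched on both strands, 250 bases before the start. The arrays shared 1 slide, and the effect of a position cannot be told apart from that of its group.

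All chemokines were accounted for. Other lists were given by counts, their 3 brightest genes and those past 2-fold, and the values of some of these genes are not reported here. Members and lists were chosen with earlier results of these data known. The alternatives were quantile and spike-in scaling, normexp background (offset 50), no or a stricter filter on dim probes, the mean of all probes, the matrix values, and a threshold of 1.5-fold. Python 3.11.15 with numpy 2.4.6 and pandas 2.3.3 was used, and R 4.3.3 with limma 3.58.1 for normexp. The steps were tested on simulated data.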

Additional observations from a re-analysis of the deposited data

Results flagged for a closer look

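For 5 chemokines the difference with 4OHT had opposite signs in OSK and OSKA cells, each past its software error. The value in OSKA cells minus that in OSK cells was −1.60 for Ccl4, −1.24 for Ccl3, −0.81 for Cxcl16, −0.66 for Ccl5 and −0.53 for Ccl2 (log2). Each rests on 1 array per group and the difference was not tested. For Ccl5 and Ccl2 the opposition depended on the scaling, since spike-in scaling gave −0.029 and −0.040 in OSK cells. In OSKA cells, Cxcl16 was −0.21 against an error of 0.20, and came within that error under quantile normalization (−0.20), spike-in scaling (−0.17) and normexp background (−0.17), as did Ccl2 under quantile normalization (−0.20). The OSK − 4OHT array enters all 5, and its part in them was not tested. By their brightest probes, 11 of the 12 measured leukocyte markers were lowest on it and Itgam was highest. The other Itgam probes were lowest on it as well, with −0.88, −0.22, −0.16 and −0.55, and with −3.61, −3.26, −3.10 and −3.46.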

How the results depend on the processing

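With 1 array per group no replicate could be left out and no paired analysis was possible because each group has 1 sample, and the number of arrays limits the precision. Of the 92 single-gene differences, spike-in scaling moved 45 by more than the software error, normexp background 7, the mean of all probes 2 and quantile normalization 1, and the other settings none. Spike-in scaling shifted the median of all genes by −0.32, 0.04, −0.49 and −0.13 in the order 4OHT in OSK cells, 4OHT in OSKA cells, OSKA against OSK without 4OHT and with 4OHT. It changed the median of the interferon-driven genes to −0.029 in the first and 0.39 in the third comparison, and that of the other chemokines to −0.18 and −0.29. Over the settings Cxcl10 lay between 0.0079 and 0.33 in the first, 1.24 and 1.38 in the second, 0.61 and 1.10 in the third and 1.82 and 2.11 in the fourth comparison, and Ccl8 between 0.49 and 0.82, 1.36 and 1.41, 0.33 and 0.84 and 1.25 and 1.43 in the 4 comparisons. The count past 2-fold higher in the third comparison was 0 under spike-in scaling and 0 under normexp background. Without a filter on dim probes, 4 were higher and 2 lower in the second comparison (5.40% and 4.18% of all genes), 3 higher in the third (4.22%), and 6 higher and 1 lower in the fourth (4.90% and 4.14%), and the median of the interferon-driven genes was 0.51 in the second and 0.76 in the fourth. At 1.5-fold, 7 were higher in the first comparison (4.33% of all genes), 1 lower in the second (4.63%) and 10 higher in the third (5.66%). In the fourth, 3 were higher and 2 lower (5.46% and 5.10%). With spike-in scaling at 1.5-fold, also chosen after seeing the data, 1 was higher and 1 lower in the first comparison (0.866% and 12.3% of all genes), 1 higher and 4 lower in the third (0.798% and 35.5%) and 4 lower in the fourth (8.89%). Leaving out Cxcl11, chosen after seeing the data, gave a median of 0.49 in the second and 1.16 in the fourth. Among all genes past 2-fold, the share that was higher was 68.8%, 69.0%, 53.8% and 63.2%, against 14.0%, 74.0%, 3.27% and 47.0% under spike-in scaling, 84.6%, 82.5%, 46.9% and 73.0% under normexp and 51.3%, 56.4%, 49.1% and 54.2% without the filter. Behind these lay 121, 408, 219 and 381 higher and 55, 183, 188 and 222 lower genes, 32, 433, 36 and 296 higher and 197, 152, 1066 and 334 lower under spike-in scaling, 22, 170, 38 and 173 higher and 4, 36, 43 and 64 lower under normexp, and 1270, 1881, 1469 and 1705 higher and 1207, 1455, 1523 and 1441 lower without the filter. The cause of these changes was not tested.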
